A study of Mus musculus with 36 samples.

Results

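Defensins are small cationic peptides, held together by disulfide bridges, that disrupt the membranes of microbes. In mice the α-defensins, also called cryptdins, are stored in the granules of Paneth cells at the base of small intestinal crypts and are cut to their active form by the protease MMP7. The β-defensins are made by epithelia of the skin, airways, kidney and, for many members, the male reproductive tract, where some coat sperm, and several act as chemoattractants through the receptor CCR6. B lymphocytes and fibroblasts are not known as sources of these peptides, and nothing was measured here about their expression.

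The defensin genes were all genes whose symbol begins with Defa or Defb followed by a digit, placed on the mm9 mouse genome by their annotated start. The rule gave 52 of 37252 annotated genes, of which 10 were α-defensin and 42 β-defensin genes. All but Defb44-ps, a pseudogene, were annotated as protein-coding. The genes lay in 5 clusters, with neighbours in a cluster no more than 1 Mb apart, on chromosomes 1, 2, 8 and 14, and chromosome 8 carried 2 of them.

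Replication timing (RT) came from Repli-seq: cells in cycle take up BrdU, those in early S phase are sorted apart from those in late S phase, and the BrdU-marked DNA of both fractions is sequenced. The series had 36 libraries in 7 groups, and the RT domain maps of 2 groups were used, with 4 libraries each from 2 separately sorted replicates of both fractions. The study's Repli-seq methods call the sorted samples of a fraction technical replicates. Another part of its methods derives sequencing replicates from separately thawed CH12 vials. The CH12 cells, a clone of a B cell lymphoma line from mouse, carried a lentiviral shRNA against LacZ (shLacZ) as the infection control and were puromycin selected. WT primary B cells were activated splenic B cells of mice with intact *Rif1*, whose age is not given in the sources used here. The growth protocol of the labels, which names IL4, CD40 and TGF beta stimulation, is worded for CH12 cells also where the library is from primary B cells. A further map named for WT mouse embryonic fibroblasts (MEFs) is tied to no library by the labels and, per the study's data list, came from an earlier series. The groups with shMcm6 or a *Rif1* knockout were not analysed here.

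Each map is a list of domains, in steps of 20 kb, that are early (E), middle (M) or late (L), and the primary B map leaves some bins of unknown bases without a state. The reads of both replicates were pooled before segmentation, which leaves 1 map per cell type. No replicate error can be given for any state or edge, and no test between cell types was made. States were called separately in each map from RT smoothed over a span of 300 kb, and the boundary between states may differ from map to map. Read depth is unknown from the maps. A gene was given the state of the domain that covers its start. Intervals are Wilson 95% intervals and cover counting over genes only, and since genes of 1 cluster share domains they are not independent: the 52 starts fell in 43 bins, and in 5 distinct domains of the CH12 map and 7 of each other map.

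In the Repli-seq of the study reads of 50 bases were kept only where they aligned to 1 place in the genome, so that the sequence of the genes bears on every value that follows. How the reads behind the MEF map were made is not given in the sources used here. Some of the α-defensin genes are near copies of each other, and sequence upstream of 7 α genes is shown to make this visible. Each line is the 160 bases before the annotated start on mm9, on the plus strand, 5′ to 3′, and they lie at chr8:22165064-22165223 for Defa21, chr8:22301796-22301955 for Defa22, chr8:22194566-22194725 for Defa23, chr8:22426928-22427087 for Defa3, chr8:22436958-22437117 for Defa5, chr8:22844806-22844965 for Defa24 and chr8:22223961-22224120 for Defa25. Capitals mark TATAAA and ATCAAAG, the latter being the core letters of the motif of TCF factors, which act in the Wnt pathway that Paneth cells depend on.
Defa21 and Defa22: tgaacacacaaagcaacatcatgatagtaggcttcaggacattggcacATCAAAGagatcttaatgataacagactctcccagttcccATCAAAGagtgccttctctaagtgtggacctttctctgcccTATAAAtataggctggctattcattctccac
Defa23: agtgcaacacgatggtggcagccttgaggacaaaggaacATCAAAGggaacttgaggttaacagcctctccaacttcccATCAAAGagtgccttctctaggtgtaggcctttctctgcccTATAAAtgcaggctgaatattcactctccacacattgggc
Defa3: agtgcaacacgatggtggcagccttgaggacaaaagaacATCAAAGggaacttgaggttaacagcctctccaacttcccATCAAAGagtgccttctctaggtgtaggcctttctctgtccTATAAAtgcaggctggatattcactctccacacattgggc
Defa5: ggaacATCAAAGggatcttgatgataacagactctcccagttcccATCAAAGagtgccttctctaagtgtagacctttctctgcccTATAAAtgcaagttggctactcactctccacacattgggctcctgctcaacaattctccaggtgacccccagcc
Defa24: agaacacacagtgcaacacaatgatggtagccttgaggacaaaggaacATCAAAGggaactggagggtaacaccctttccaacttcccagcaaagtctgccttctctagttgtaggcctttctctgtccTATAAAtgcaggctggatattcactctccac
Defa25: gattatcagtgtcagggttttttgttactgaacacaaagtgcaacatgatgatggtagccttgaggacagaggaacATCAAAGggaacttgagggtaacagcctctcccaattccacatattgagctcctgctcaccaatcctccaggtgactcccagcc

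Defa21 and Defa22 had the same 160 bases although their starts lie in different 20 kb bins. Over the 100 bases next to the start, Defa23 and Defa3 matched at 98 positions, and Defa21 and Defa20 at 95. Over all 45 pairs of α genes the number of matching positions at the same distance from the start ranged from 21 to 100 with a median of 28, so that groups of near-identical genes stood beside genes whose annotated starts are offset or whose sequence differs. In the window from 250 bases before to 50 bases after the start, ATCAAAG on either strand was present in 10 of 10 α genes and in 0 of 42 β genes, against 3.47% of the windows of all 22350 protein-coding genes. It occurred 2 times in 7 α genes, always 40 bases apart, and 1 time in 3, and all 17 matches were on the strand of the gene. TATAAA on either strand was found in 8 of 10 α genes, with its first base between 74 and 31 bases before the start, and in 10 of 42 β genes (23.8%), against 13.4% of all windows. The 2 motifs overlapped in 0 of the 52 windows. These matches describe the letters only.

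The β-defensin genes were more diverse, as the 100 bases before the start of 10 of them show. They were picked to stand for each cluster (Defb18 on chromosome 1, Defb23 on chromosome 2, Defb48 on chromosome 14), for genes next to an edge between states (Defb1, Defb50, Defb14) and for genes of the proximal chromosome 8 cluster with a stretch found 6 times (Defb46, Defb3, Defb8, Defb7). Each is printed on the strand of its gene, and capitals mark the 50 bases next to the start where these 50 bases occur more than once in the genome. On mm9 they lie at chr8:22886971-22887070 for Defb1, chr8:22933911-22934010 for Defb50, chr8:19194257-19194356 for Defb14, chr8:19239816-19239915 for Defb46, chr8:19293260-19293359 for Defb3, chr8:19494997-19495096 for Defb7, chr2:152290357-152290456 for Defb23 (minus strand), chr1:18227525-18227624 for Defb18 (minus strand), chr14:63603348-63603447 for Defb48 (minus strand) and chr8:19447607-19447706 for Defb8 (minus strand). The genes without a strand given are on the plus strand.
Defb1: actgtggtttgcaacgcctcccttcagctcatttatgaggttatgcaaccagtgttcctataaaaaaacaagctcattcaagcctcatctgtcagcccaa
Defb50: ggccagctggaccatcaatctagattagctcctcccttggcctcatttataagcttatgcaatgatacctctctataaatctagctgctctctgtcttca
Defb14: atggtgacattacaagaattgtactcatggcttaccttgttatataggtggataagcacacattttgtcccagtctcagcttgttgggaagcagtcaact
Defb46: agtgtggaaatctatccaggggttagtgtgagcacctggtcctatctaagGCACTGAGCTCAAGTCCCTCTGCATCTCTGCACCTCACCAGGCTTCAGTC
Defb3: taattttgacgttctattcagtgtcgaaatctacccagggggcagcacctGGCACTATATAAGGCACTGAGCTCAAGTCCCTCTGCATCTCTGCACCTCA
Defb8: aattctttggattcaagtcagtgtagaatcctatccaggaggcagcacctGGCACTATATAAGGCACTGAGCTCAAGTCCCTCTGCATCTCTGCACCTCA
Defb7: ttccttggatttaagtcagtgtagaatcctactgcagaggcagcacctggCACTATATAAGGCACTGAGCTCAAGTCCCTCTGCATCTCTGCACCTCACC
Defb18: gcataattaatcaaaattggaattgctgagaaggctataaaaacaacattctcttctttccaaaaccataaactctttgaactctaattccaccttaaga
Defb23: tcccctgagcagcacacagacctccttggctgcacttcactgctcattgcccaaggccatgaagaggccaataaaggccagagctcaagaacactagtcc
Defb48: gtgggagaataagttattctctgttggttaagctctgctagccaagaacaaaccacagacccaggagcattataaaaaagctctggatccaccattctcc

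The 50 bases next to the start of Defb46, Defb3, Defb8 and Defb7 each occurred 6 times in the genome. Among β genes, 36 of 42 had both 50-base stretches of these 100 bases once in the genome. Among α genes this held for 0 of 10, and in 7 of 10 both stretches were repeated.

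The defensin clusters did not share 1 RT state. The chromosome 2 cluster was E in all 3 maps and the chromosome 1 cluster L in all 3. The proximal chromosome 8 cluster was split between M and L, the distal chromosome 8 cluster, which holds every α gene, was wholly L in CH12 cells and L with an M end in the other maps, and the chromosome 14 cluster was M in CH12 cells and E in the other maps. No defensin gene was E in one map and L in another. Such differences were rare among all 22350 protein-coding genes too. They numbered 134 between CH12 and primary B cells, 466 between CH12 cells and MEFs, and 174 between primary B cells and MEFs.

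**Figure D1:**
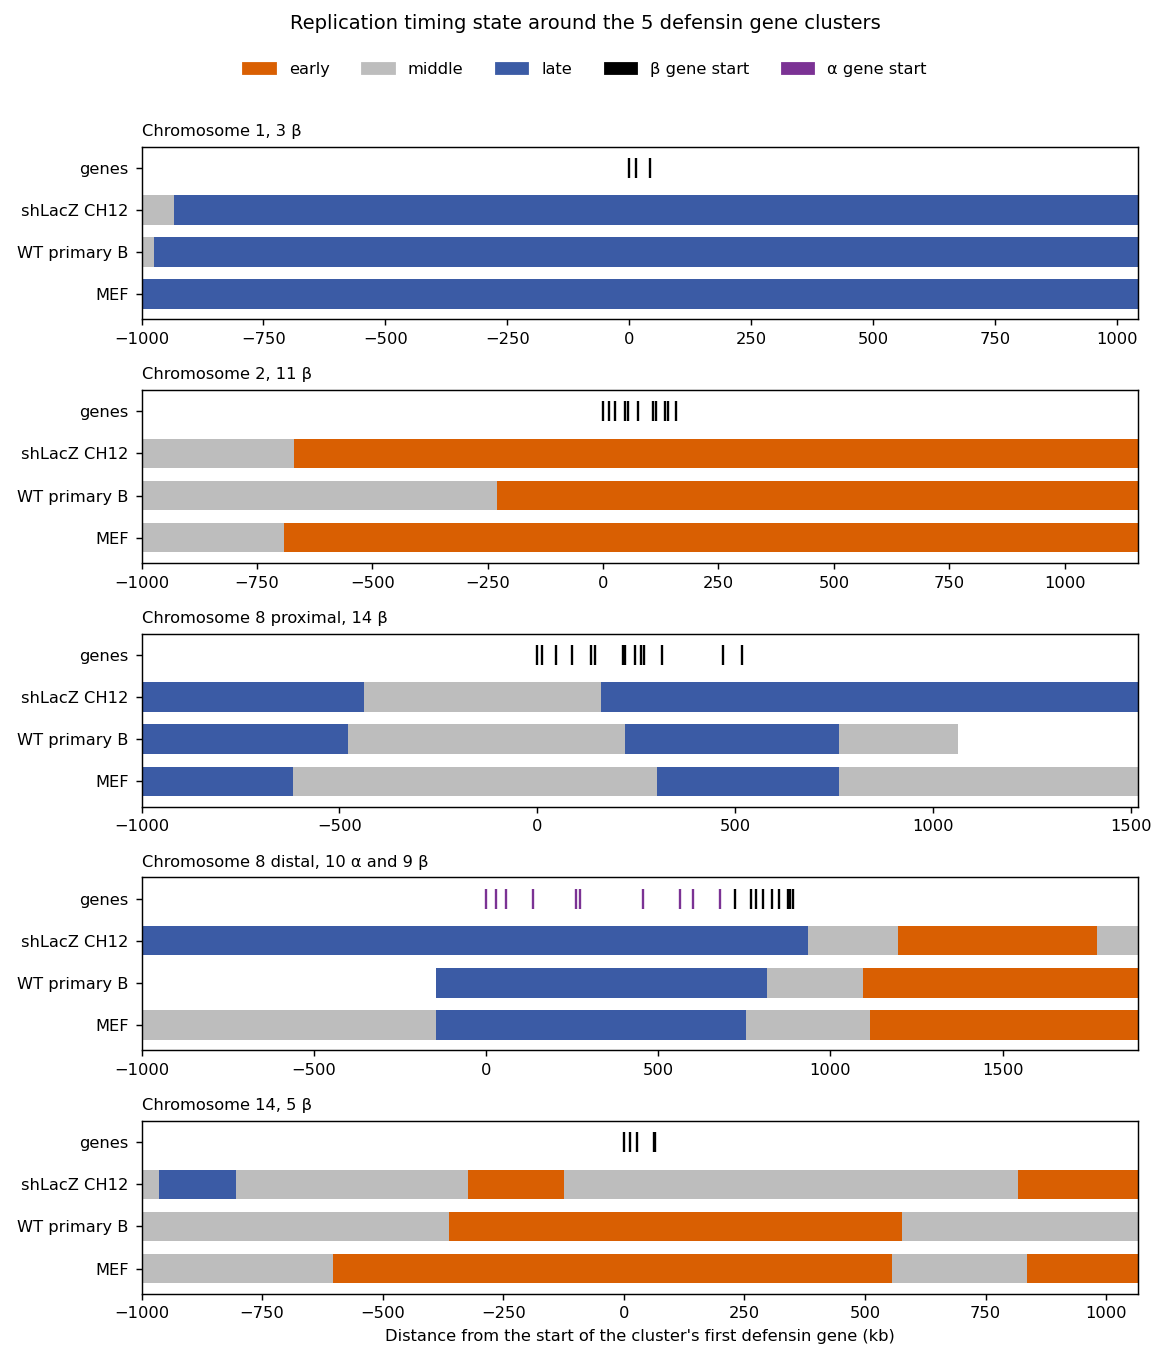
RT state (orange early, grey middle, blue late) around each of the 5 defensin clusters in the shLacZ CH12, WT primary B and MEF maps, against the distance in kb from the first defensin gene start of the cluster, with 1 Mb shown on either side. Ticks mark gene starts (black β, purple α) and white marks bins without a state; the chromosome 2 ticks lie over orange and the chromosome 1 ticks over blue in all 3 maps, while the edges on chromosome 8 fall among the genes, except the distal edge of the CH12 map, which lies past the last gene.

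All 10 α-defensin genes, Defa21, Defa23, Defa25, Defa22, Defa3, Defa5, Defa20, Defa26, Defa17 and Defa24 in chromosomal order, were L in CH12, primary B and MEF maps. Their starts ran over 680 kb, from base 22165224 to base 22844966 of chromosome 8, and all 10 were on the plus strand. In the primary B map the L domain around them was chr8:22020001-22980000, 960 kb long, and in the MEF map it was chr8:22020001-22920000, 900 kb long. In the CH12 map a single L domain of 3960 kb, chr8:19140001-23100000, held the α genes together with 9 distal and 8 proximal β genes. Of that length 2100 kb were unknown bases, and 1860 kb had known sequence.

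The state given to the unknown stretch between both chromosome 8 clusters differed between the maps. It spans 1980 kb (chr8:20040001-22020000, 99 bins) without 1 known base. The CH12 map called all 99 bins L, the MEF map called all 99 M, and the primary B map gave them no state. No defensin gene starts there. The continuous L domain of the CH12 map therefore crosses sequence in which no read could be placed, and the M domain of the MEF map that borders the α genes, chr8:19740001-22020000, is 2280 kb long with 2031 kb of unknown bases.

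The 9 β-defensin genes of the distal cluster follow the α genes, and their starts run over 170 kb, from Defb1 to Defb13. Defb1, a constitutive epithelial β-defensin, was L in all 3 maps. Defb50, Defb2 and Defb10 were L in CH12 and primary B cells and M in MEFs. Defb9, Defb11, Defb15, Defb35 and Defb13 were L in CH12 cells and M in both other maps. The order of these states follows the chromosome: the distal edge from L to M lay after base 23100000 in CH12 cells, past the last gene, after base 22980000 in primary B cells, between Defb10 and Defb9, and after base 22920000 in MEFs, between Defb1 and Defb50. The edge thus ranged over 180 kb, or 9 bins, which is less than the 300 kb smoothing span.

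Beyond the distal cluster the maps turned early within a short distance. The M domain after the edge was 260 kb long in CH12 cells, 280 kb in primary B cells and 360 kb in MEFs, and an E domain followed in each map. C86695 and Ccdc70, the first protein-coding genes after Defb13, had the states of Defb13 (L, M and M in the CH12, primary B and MEF maps), and Atp7b, which encodes a copper transporter, was M in all 3. The 3 protein-coding genes before the cluster, Gm15056, Gm6040 and AY761185, were L in all 3 maps.

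The proximal chromosome 8 cluster has 14 β-defensin genes over 517 kb and was crossed by an edge from M to L in each map. Defb40, Defb37, Defb38, Defb39, Defb12 and Defb34, the first 6, were M in all 3 maps. Defb3, Defb8 and Defb7, the last 3, were L in all 3. Between them, Defb14, the counterpart of human β-defensin 3, and Defb4, an inducible epithelial β-defensin, were L in CH12 cells and M in the other maps, and Defb6, Defb46 and Defb5 were L in CH12 and primary B cells and M in MEFs. This gave 6 M and 8 L genes in CH12 cells, 8 M and 6 L in primary B cells, and 11 M and 3 L in MEFs.

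The proximal edge lay after base 19140000 in CH12 cells, 60 kb further on in primary B cells and 140 kb further on in MEFs. Its range of 140 kb, or 7 bins, is again below the smoothing span. Some genes were very near it: Defb4 started 1.29 kb and Defb14 5.64 kb before the edge of the primary B map, Defb3 started 13.4 kb after that of the MEF map, and Defb34 started 16.3 kb before that of the CH12 map. Spag11b and Spag11a, which encode sperm-binding proteins related to β-defensins and lie between Defb34 and Defb14, had the states of Defb14. Before the cluster, Angpt2 (a ligand of the TIE2 receptor of blood vessels), Agpat5 and Xkr5 were M in all 3 maps, like Gm11051 inside it. After the cluster, Gm6483 and 4930467E23Rik were L in all 3 maps, and Gm15319 was L in CH12 cells and M in the other maps.

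The 2 chromosome 8 edges moved in opposite directions along the chromosome, and the stretch between them was longest in CH12 cells and shortest in MEFs. That stretch was a single L domain only in CH12 cells. In primary B cells it also held an M domain of 300 kb (chr8:19740001-20040000) and the bins without a state. In MEFs it also held the M domain of 2280 kb. The shifts of both edges are below the 300 kb smoothing span. Of the 1500 edges between L and M domains in the CH12 map, 16.9% had an edge of the same kind within 200 kb in both other maps, and both of these edges are among them. The 200 kb distance was chosen with the edges known, so this share is given as background only.

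The chromosome 2 cluster has 11 β-defensin genes over 158 kb, from Defb23 to Defb25, many of them known from the epididymis and testis, among them Defb22, a coat protein of sperm. All 11 were E in all 3 maps. They were inside E domains of 2080 kb in CH12 cells (chr2:151620001-153700000), 1660 kb in primary B cells (chr2:152060001-153720000) and 2020 kb in MEFs (chr2:151600001-153620000). The nearer edge was 670.4 to 829 kb from the starts in CH12 cells and 690.4 kb or more in MEFs, but 230.4 to 389 kb in primary B cells, whose E domain began further on. The 3 protein-coding genes on either side, Sox12, Zcchc3 and 6820408C15Rik before and Rem1, H13 and Mcts2 after, were E in all 3 maps too, as was Gm17416 inside the cluster.

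The chromosome 1 cluster, Defb44-ps, Defb18 and Defb41, was L in all 3 maps. Its 3 starts, over 41.6 kb, lay 934 kb or more from any edge in each map, in L domains of 3400 kb in CH12 cells and 3340 kb in both other maps. The median L domain was 1100 kb long in CH12 cells, 900 kb in primary B cells and 960 kb in MEFs. Crisp4, which encodes an epididymal sperm protein and lies 77.7 kb before the cluster, was L in all 3 maps, as were Pi15, Crispld1, Tcfap2d and Tcfap2b on either side and Gm15386 inside it. Pkhd1, the next gene, starts 2353 kb after the cluster and was L in CH12 cells and M in the other maps.

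The chromosome 14 cluster was the only one whose genes all had a different state in CH12 cells than in the other maps. Defb48, Defb47, Defb43, Defb42 and Defb30 were M in CH12 cells, in a domain of 940 kb (chr14:63480001-64420000), and E in primary B cells, in a domain of 940 kb (chr14:63240001-64180000), and in MEFs, in a domain of 1160 kb (chr14:63000001-64160000). Their starts were 123 to 189 kb from the nearer edge in CH12 cells, 363 to 429 kb in primary B cells and 491 to 557 kb in MEFs. On one side the E state came close in CH12 cells too: an E domain of 200 kb ended where the M domain began, and Serpine3, Ints6 and Wdfy2, whose starts are in it, were E in all 3 maps. On the other side Ctsb, a lysosomal protease gene, Fdft1, the gene of squalene synthase, and Neil2, a DNA glycosylase gene, were M in CH12 cells and E in the other maps like the defensin genes.

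**Figure D2:**
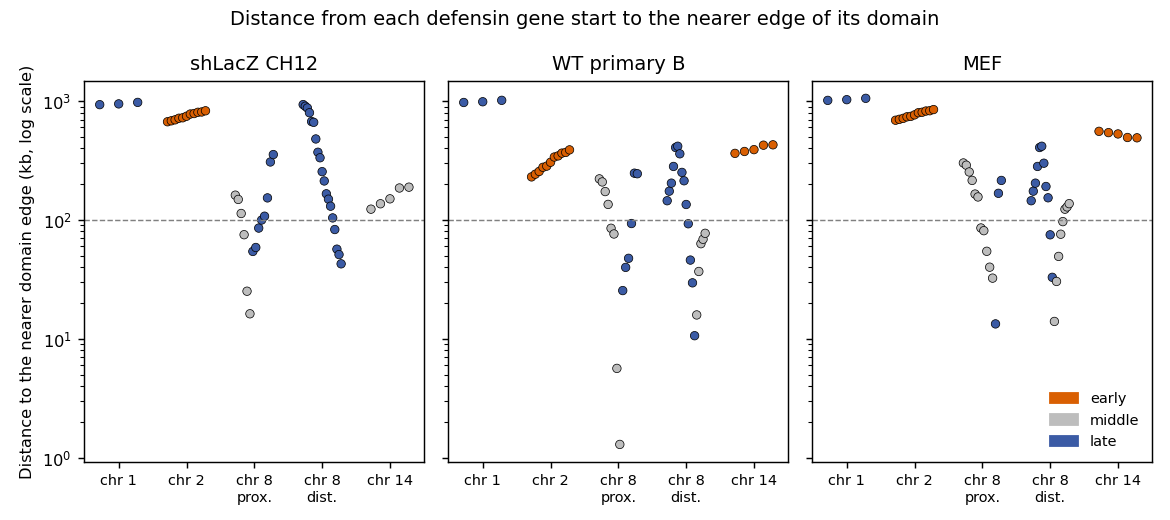
Distance in kb, on a log scale, from each of the 52 defensin gene starts to the nearer edge of the domain that covers it, by cluster and map, with each point coloured by its state (orange early, grey middle, blue late) and a dashed line at 100 kb. Points of the chromosome 1, 2 and 14 clusters all lie above the line, and those of both chromosome 8 clusters run through it where an edge lies among or near the genes. In the primary B and MEF maps the nearer edge of some α genes, such as Defa21, is the border with the unknown stretch.

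Counted over genes, defensin genes were L more often than protein-coding genes in each map. In CH12 cells 30 of 52 were L (57.7%, interval 44.2 to 70.1%), 11 M (21.2%) and 11 E (21.2%), while of 22350 protein-coding gene starts 22.1% were L, 27.2% M and 50.6% E. In primary B cells 23 were L (44.2%, interval 31.6 to 57.7%), 13 M (25.0%) and 16 E (30.8%), against 12.9%, 29.1% and 58.0%. In MEFs 17 were L (32.7%, interval 21.5 to 46.2%), 19 M (36.5%) and 16 E (30.8%), against 11.9%, 29.6% and 58.6%. The β genes alone were L in 20 of 42 cases in CH12 cells (47.6%, interval 33.4 to 62.3%), 13 in primary B cells (30.95%, interval 19.1 to 46.0%) and 7 in MEFs (16.7%, interval 8.32 to 30.6%). The interval of β genes in MEFs includes the share of protein-coding genes. A share over 52 genes rests on 5 clusters, and no test of these differences was made.

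**Figure D3:**
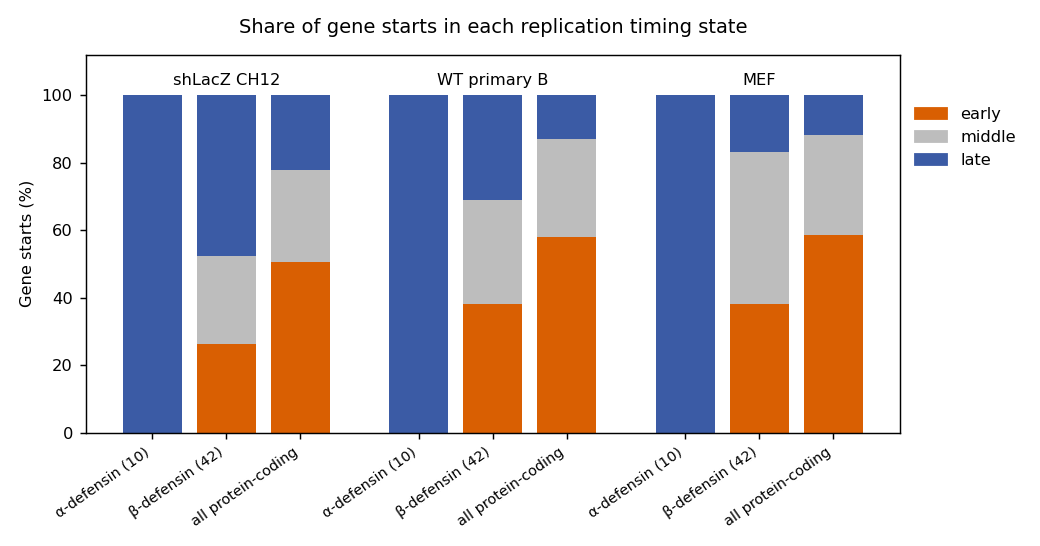
Share in percent of gene starts that were early (orange), middle (grey) or late (blue) in each map, for 10 α-defensin genes, 42 β-defensin genes and all 22350 protein-coding genes. The α bars are wholly blue in all 3 maps, and the blue part of the β bars goes from 47.6% in CH12 cells through 30.95% in primary B cells to 16.7% in MEFs.

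Between CH12 and primary B cells 40 of 52 defensin genes had the same state (76.9%, interval 63.9 to 86.3%), against 78.5% of protein-coding genes. Between CH12 cells and MEFs the count was 34 (65.4%, interval 51.8 to 76.8%), against 70.1%, and between primary B cells and MEFs 46 (88.5%, interval 77.0 to 94.6%), against 75.0%. Defensin genes with 1 state in all 3 maps numbered 34 (65.4%), against 62.8% of protein-coding genes. These shares are near the background. For the last pair of maps the lower limit is above it, but with genes placed by their midpoint (45 of 52) the lower limit was 74.7%, and it was 71.6% without the chromosome 2 cluster and 74.8% without the chromosome 14 cluster.

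Every defensin gene that differed between maps was earlier in primary B cells than in CH12 cells, or earlier in MEFs than in either. Against CH12 cells 12 genes (of 52) were earlier in primary B cells and 0 later, while 18.8% of protein-coding genes were earlier and 2.75% later. In MEFs 18 were earlier than in CH12 cells and 0 later, while 23.1% of protein-coding genes were earlier and 6.81% later. The 6 that were earlier in MEFs than in primary B cells compare with 13.2% of protein-coding genes, and the 0 that were later with 11.8%. The 12 genes belong to 3 clusters and the 18 to the same 3, so these counts stand for shifts of the 2 chromosome 8 edges and of the state around the chromosome 14 cluster.

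Written in the order CH12, primary B and MEF, the states of the 52 genes took 6 forms. LLL was found in 17 genes of 3 clusters and in 8.12% of protein-coding genes. EEE was found in the 11 genes of chromosome 2 and in 43.9% of protein-coding genes, MMM in 6 genes and in 10.8%, LMM in 7 genes and in 5.62%, LLM in 6 genes and in 3.88%, and MEE in the 5 genes of chromosome 14 and in 5.46%.

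How much unique sequence stands behind a state differed widely among the genes. Of 50-base windows sampled over the whole genome, 88.6% occurred once. Over the bins of the clusters this share was 96.9% on chromosome 2, 96.8% on chromosome 14, 90.0% on chromosome 1 and 82.6% in the proximal chromosome 8 cluster, but 40.4% in the distal one. Within the distal cluster the low share lay with the α genes: the 35 bins from Defa21 to Defa24 had 26.5% unique windows. These bins hold 50000 unknown bases, and some have no known window. Of those with a known window, 28 were under 50%, whereas the 9 bins from Defb1 to Defb13 had 84.4% and 0 under 50%.

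**Figure D4:**
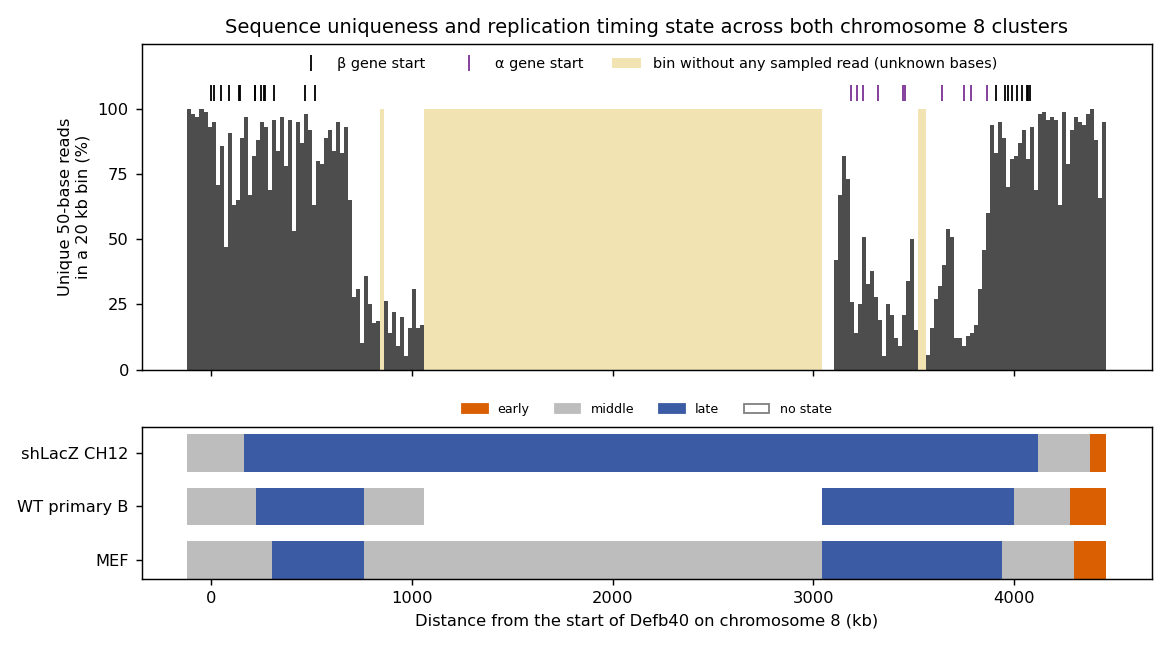
Top, share in percent of sampled 50-base windows that occur once in the genome, for each 20 kb bin from Defb40 on, with α (purple) and β (black) gene starts as ticks and bins without any known window in yellow; bottom, RT state of the same bins in the 3 maps, white where a bin has no state. Bins around the α genes reach 5% to 60%, and the bins from Defb1 to Defb13 hold 70% or more. A block of 1980 kb is unknown, as are shorter stretches, including between α genes.

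By gene body, windows every 10 bases gave 0 of 89 unique in Defa5, 8 of 93 in Defa23, 8 of 91 in Defa17 and 11 of 92 in Defa3. Defa24, the α gene nearest to the β genes, had the highest share among α genes, with 71 of 93 (76.3%). The median was 23.3% over α genes and 95.5% over β genes. The lowest β genes were Defb39 (50.1%) and Defb35 (56.9%).

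**Figure D5:**
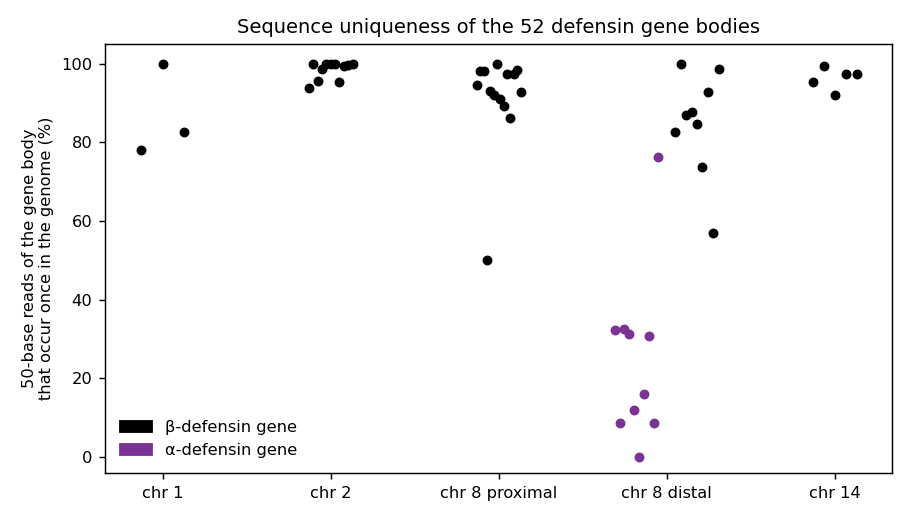
Share in percent of 50-base windows of each of the 52 gene bodies that occur once in the genome, by cluster. The α genes (purple) lie between 0% and 76.3% and the β genes (black) between 50.1% and 100%.

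Set against other L domains, the one that holds the α genes was among the least unique. Its share of unique windows was 51.0% in the CH12 map, where 42 of 750 L domains were lower and the median was 89.4%. It was 36.8% in the primary B map, with 40 of 664 lower, and 33.6% in the MEF map, with 30 of 501 lower. The L state of all α genes in all 3 maps is thus a state over sequence of which, in the stretch from Defa21 to Defa24, most 50-base windows occur more than once, and the part of this in the result was not tested. Where only genes in bins with 50% or more unique windows were counted, the L share in MEFs was 20.5% (9 of 44 genes, interval 11.2 to 34.5%). It was 50.0% in CH12 cells (22 of 44, interval 35.8 to 64.2%) and 34.1% in primary B cells (15 of 44, interval 21.9 to 48.9%). Among protein-coding genes, without this filter, 22.1% were L in CH12 cells, 12.9% in primary B cells and 11.9% in MEFs. The MEF interval includes the share of protein-coding genes. The proximal M to L edge and the distal L to M edge lay in more readable sequence. Unique windows were 78.4 to 87.8% in the 10 bins around the proximal edge and 78.7 to 90.8% around the distal edge. The other border of the L domain around the α genes, after base 22020000 in the primary B and MEF maps, adjoined the unknown stretch. The bins next to that border had 0.0% unique windows.

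Base composition of the bins with a defensin start was near that of other bins of the same state. In the CH12 map it was 45.6% GC in E bins with a defensin start and 45.74% in all E bins, 41.7% and 42.75% in M bins, and 40.2% and 39.45% in L bins. The windows around the gene starts had few CpG dinucleotides: the median was 1 in α genes and 2 in β genes, against 11 in all protein-coding genes and 3 in protein-coding genes that were L in CH12 cells. The E genes of chromosome 2, with a median of 4 CpGs, compare with a median of 16 in protein-coding genes that were E in CH12 cells.

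Other genes of defensin biology and of antimicrobial defence were E more often than not, as were protein-coding genes in general. Of 26 listed genes 19 were E in CH12 cells, 20 in primary B cells and 18 in MEFs, beside 50.6%, 58.0% and 58.6% of protein-coding genes. E in all 3 maps were 14 of them (53.8%), beside 43.9% of protein-coding genes, and no test was made. Mmp7, whose product processes α-defensins in mice, and the chemokine receptor genes Ccr6 and Ccr2 were E in CH12 and primary B cells and M in MEFs. Among 6 receptors known to act upstream of defensin induction, Tlr2, Il17ra and Il22ra1 were E throughout, Nod2, a sensor of bacterial cell wall fragments that Paneth cells use, was E, E and M, Tlr5 was E, M and E, and Tlr4 was L in CH12 cells and M in the other maps.

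Of 11 genes for other epithelial antimicrobial proteins, 8 were E in all 3 maps: Camp (cathelicidin), the lysozyme genes Lyz1 and Lyz2, Pla2g2a, Lcn2, Ltf, Slpi and Wfdc2. Lyz1, like the α-defensins, encodes a product of Paneth cells, and was E in each map where those were L. E in all 3 maps were 43.9% of protein-coding genes. Ang4, a further Paneth cell product, was M in all 3, and Reg3b and Reg3g, lectins of the intestinal epithelium, were L in CH12 and primary B cells and M in MEFs. The 6 neutrophil granule genes were never L: Elane, Mpo and Ngp were E throughout, Ctsg was M, M and E, and S100a8 and S100a9 were M in CH12 cells and E in the other maps, the states of the chromosome 14 defensins.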

How the data were processed

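Repli-seq libraries (early and late S phase fractions) were processed by the authors. Per the study's methods and the submitters' processing notes, reads were trimmed with Trim Galore 0.6.5 and aligned to mm9 with BWA 0.7.17. Unique alignments were kept and replicates merged with SAMtools 1.9, duplicates were removed, log2 early over late ratios were taken in 20 kb windows with deepTools and smoothed by loess over 300 kb, and a hidden Markov model gave 3 states. The deposited files hold domain limits and a state number and no read counts, signal or replicates. The numbers were read as E 2, M 1 and L 0 in CH12 and primary B cells and E 0, M 2 and L 1 in MEFs. In each map no E domain touched an L domain, and protein-coding starts per Mb were highest in E and lowest in L. On all 20 chromosomes the maps ran to the end of the NCBIM37 (mm9) sequence.

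Genes came from GENCODE M1. Exact copies of 50-base windows were counted on both strands of all 211 sequences of NCBIM37, every 200 bases of a bin and every 10 bases of a gene. This ignores mismatches, which an aligner allows. Upstream sequences came from NCBIM37. Neighbours are the 3 nearest protein-coding genes on either side of a cluster and those inside it, of which an item is not reported here. The printed sequences were chosen after their values were seen. The members, gene lists, motifs and alternatives were chosen with earlier results of these data known. The functions were tested on simulated data, and 3 of 3 checks recovered the known answers. Protein sequences were not used here. Scripts ran in Python 3.11.15 with numba 0.67.0, numpy 2.4.6, pandas 2.3.3, matplotlib 3.10.9 and scipy 1.17.1.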

Additional observations from a re-analysis of the deposited data

How the results depend on the processing

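Of 101 values recomputed under the other settings, 87 stayed within the interval of the value reported. Leaving out genes within 300 kb of an edge gave 44.0% E and 0.0% M of 25 genes in CH12 cells, 64.7% E and 0.0% M of 17 in primary B cells, and 69.6% E and 4.35% M of 23 in MEFs. This keeps genes of long domains only, so these shares follow domain length too. The median M domain was 380 kb in CH12 cells, 440 kb in primary B cells and 620 kb in MEFs. In each map it was shorter than the median E and L domains. With genes within 100 kb of an edge left out, primary B cells had 45.7% E and 11.4% M of 35 genes. MEFs then had 23.1% M of 39. The same state was held by 84.8% of the genes in CH12 cells and MEFs. In primary B cells and MEFs it was 100% (34 of 34). This filter removes every gene between the chromosome 8 edges of 2 maps, as each lies within 100 kb of an edge. The 6 genes that differed between primary B cells and MEFs all lie there, so the 100% was fixed by the filter. With the wider choice of symbols (71 genes), the L share was 59.2% in primary B cells and 49.3% in MEFs. Without bins under 50% unique it was 20.5% in MEFs and stayed within its interval in the other maps. Gaps of 500 kb and 2 Mb both gave 5 clusters, and 0 members had unknown bases in their bin.

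Leaving out 1 cluster at a time decided the shares, and 11 of 60 values left the interval. In CH12 cells E ranged from 0.0 to 33.3%, M from 12.8 to 33.3% and L from 33.3% without the distal chromosome 8 cluster to 73.2% without chromosome 2. In primary B cells E ranged from 12.2 to 48.5%, M from 13.2 to 31.7% and L from 27.3 to 56.1%. In MEFs E ranged from 12.2 to 48.5%, M from 21.1 to 46.3% and L from 18.2 to 41.5%. The lowest L share came without the distal chromosome 8 cluster in each map. Same-state shares stayed within their intervals when a cluster was left out. Leaving out a cluster changes only which genes are counted, while the states of the other genes stay the same. No paired analysis was possible because the maps hold pooled replicates only. Each map is 1 measurement without error or depth. The part of smoothing in shifts below the 300 kb span of the study's methods was not tested.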

Other observations

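For other gene families that stand in clusters, only shares were counted and no difference from the defensin genes was tested. Of 261 olfactory receptor genes of chromosome 7, 72.0% were L in CH12 cells, 41.4% in primary B cells and 71.6% in MEFs. Of 104 keratin and keratin-associated protein genes, 33.7% were L in CH12 cells and 21.2% in each other map. Of 31 killer cell lectin-like receptor (Klr) genes, 51.6% were L in CH12 cells, 38.7% in primary B cells and 45.2% in MEFs.

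Defb35 was the β gene with the most repeated upstream sequence, with 21 copies of the far and 6 copies of the near 50 bases before its start.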
